A study of Mus musculus with 4 samples.

Results

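Heat shock chaperones of the cytosol and mitochondria, with their J-domain and BAG partners, were examined in Neuro-2a cells exposed to the pyrethroid insecticide deltamethrin. Members were the genes whose symbol in the platform annotation named a heat shock protein (Hsp), a J-domain protein of class A, B or C (Dnaja, Dnajb, Dnajc) or one of the BAG proteins 1 to 6. Of 77 matches, 8 were left out by name, namely Hspg2, which is not a chaperone, and 7 chaperones of the endoplasmic reticulum lumen. This left 69 genes, each read by 1 probe set, of 19505 named genes and 22206 probe sets on the array. The members reach beyond the cytosol and mitochondria, since at least 7 of them (such as Dnajb12 and Dnajb14) encode proteins of the endoplasmic reticulum membrane, and they also include J-domain proteins with dedicated tasks in splicing, vesicle uncoating or ribosome assembly.

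Neuro-2a is a mouse neuroblastoma line, here from a cell bank stock recorded as derived from Albino strain A, so every array came from a single tumour line. Semi-confluent cells received deltamethrin at 30 µM for 24 h, and vehicle cells received 0.1% DMSO. Whether the deltamethrin medium held the same DMSO is not given in the sources used here. Each group had 2 Clariom S Mouse arrays. Nothing in the labels ties the arrays to separate cultures, so p-values reflect only how far these arrays differ, which may be technical, and batch and group cannot be told apart. Values are normalised log2 signals, so a step of 1 is a doubling. Signals of different probe sets are not set against each other, because probes differ in how brightly they report the same amount of RNA.

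Chaperones bind unfolded proteins and either refold them or pass them on for degradation. HSP70 proteins do so in a cycle driven by ATP, in which J-domain proteins deliver the client. HSP110 and several BAG proteins release the bound nucleotide. Small heat shock proteins hold clients without ATP, HSP90 matures kinases and receptors, and HSP60 with HSP10 forms a folding chamber in mitochondria. When unfolded protein builds up in the cytosol, heat shock factor HSF1 binds heat shock elements, which are inverted repeats of the letters GAA, and switches on a core of these genes.

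In limma, 0 of the 69 genes passed an adjusted p below 0.05, where 0.432% of all probe sets did (96 of 22206). The strongest estimates were those of Dnaja3, a mitochondrial J-domain protein, at 1.00 ± 0.19 (SE, n = 2 per group, limma adjusted p = 0.120), and of the small heat shock protein gene Hspb8 at 0.83 ± 0.18 (limma adjusted p = 0.143). On the lower side, Bag3, the partner of HSPB8 in selective autophagy of misfolded proteins, was at -0.59 ± 0.16 (limma adjusted p = 0.217). The median log2 fold change was 0.04 over the members (-0.02 without deltamethrin replicate 2) and -0.02 over all probe sets. Estimates were above 0 for 39 of the 69 members and for 10390 of all 22206 probe sets. At an unadjusted p below 0.05 there were 12 members, which is 17.4% against 13.7% of all probe sets. Of these, 8 were higher, which is 11.6% of the members against 6.83% of all probe sets, and 4 were lower, which is 5.8% against 6.84%. The higher ones were Dnaja3, Hspb8, Dnajb2, Dnajb12, Hspa1b, Hspb1, Dnajb7 and Hspb3, and the lower ones Bag3, Dnajc5, Dnajc9 and Dnajc5b. Of these, Hspa1b, Hspb1, Hspb3 and Dnajc5b lay below the median probe set by their mean in both groups. In at least 1 group, 56 of the 69 members lay above it, and 11335 of all 22206 probe sets. Among those above it, 5 of 56 members and 1179 of 11335 probe sets were higher, and 3 and 962 were lower. The arrays of the groups did not overlap for 30 members, or 43.5%, against 43.9% of all probe sets.

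These calls depended on how the variance was modelled. When limma let the variance follow the signal (a mean-variance trend), 3.63% of all probe sets and 3 of the 69 members (4.35%) passed, namely Dnaja3 (limma adjusted p = 0.00695), Hspb8 (0.00678) and Bag3 (0.0283). Dnaja3 and Hspb8 were then called higher, as 2.25% of all probe sets were, and Bag3 lower, as 1.38% were. Most calls with a trend fell on probe sets above the median in at least 1 group. There, 2 of 56 members and 492 of 11335 probe sets were called higher, and 1 and 300 lower. When the 40% of probe sets with the lowest mean signal were left out, 1 of the 59 members kept passed (Dnaja3, limma adjusted p = 0.0470), against 2.34% of all probe sets kept. With 2 arrays a group, an exact permutation test of a single gene cannot go below a two-sided p of 0.333.

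**Figure D1:**
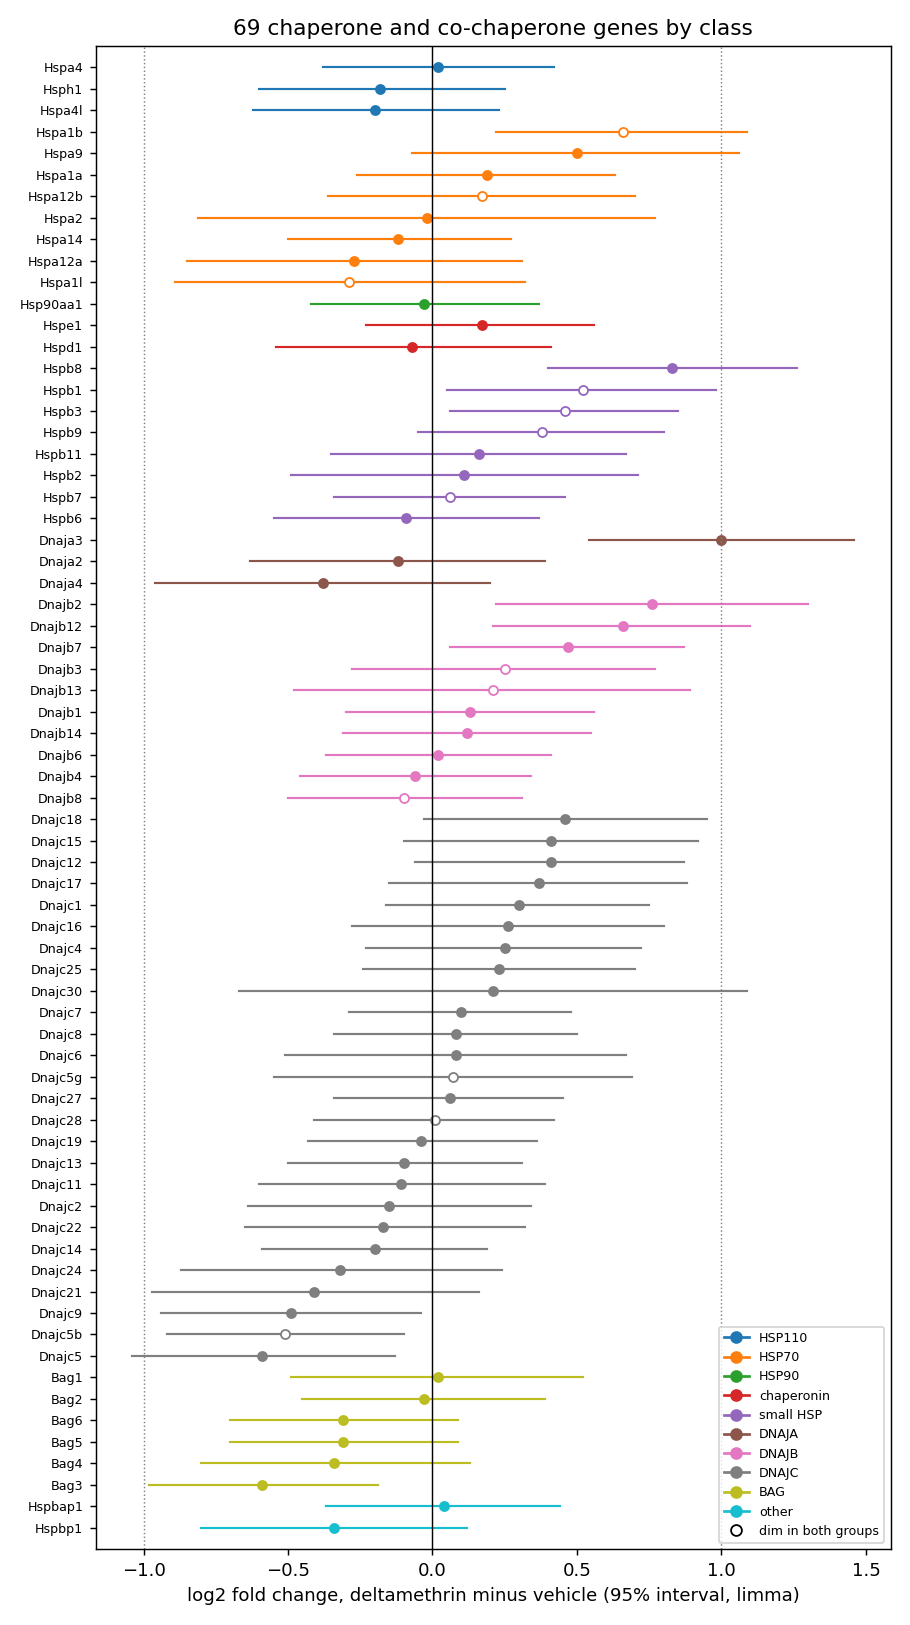
Log2 fold change (deltamethrin minus vehicle, x axis) of each of the 69 genes (y axis), coloured by class and ordered by estimate within it. Points are limma estimates with 95% intervals, open points are the 13 genes whose mean lay below the median probe set in both groups, and dotted lines mark a 2-fold change. Dnaja3 (1.00), Hspb8 (0.83) and Dnajb2 (0.76) lie furthest to the right, and Bag3 and Dnajc5 (both -0.59) furthest to the left.

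Heat shock elements are what the classical members are known to share, so promoter sequences are shown before the single genes. RefSeq promoter windows (GRCm38.p6, from 250 bases before to 50 after each annotated start) were found for 57 of the 69 genes, in 71 windows. They were searched on both strands for GAANNTTC and TTCNNGAA, which hold 2 inverted units, and for the same with 3 units, that is GAANNTTC followed by NNGAA or TTCNNGAA followed by NNTTC. A match with 3 units contains matches with 2. At least 1 match with 2 units was present in 15 of 57 member genes (26.3%) and in 17.0% of all 27025 genes with a window. The forms differed: GAANNTTC was in 24.6% of member genes and 9.04% of all genes, TTCNNGAA in 8.77% and 9.6%. Matches with 3 units were present in 4 member genes (7.02%) and in 0.662% of all genes. Counted by window, 8.45% of member windows and 0.603% of all windows of this length held 3 units. These 6 member windows belong to the same 4 genes, so some genes count more than once. These are descriptions of letters, not of binding.

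The 4 genes with 3 units were Hsph1, Dnajb6, Hspd1 and Hspe1. Hspd1 and Hspe1 are neighbours that read in opposite directions, and a window of Hspd1 shares 285 of its 300 bases with that of Hspe1, so they hold the same match. The sequences below are those of Hsph1, Hspe1 and Dnajb6 for the matches with 3 units, of Hspb1 for 2 separate matches with 2 units, of Hspa1b as the inducible HSP70, and of Hspb8 and Bag3 as members with a call in the fit with a trend. They read 5′ to 3′ along the gene's strand in GRCm38.p6, and capitals mark every match of 2 or 3 units.
Hsph1, chr5:149636266-149636565, minus strand: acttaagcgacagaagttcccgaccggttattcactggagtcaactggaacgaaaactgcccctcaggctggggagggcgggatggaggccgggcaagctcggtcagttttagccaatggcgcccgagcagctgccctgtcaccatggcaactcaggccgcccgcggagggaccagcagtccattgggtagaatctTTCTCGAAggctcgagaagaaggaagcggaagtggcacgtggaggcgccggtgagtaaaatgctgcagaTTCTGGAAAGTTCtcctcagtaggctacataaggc
Hspe1, chr1:55087898-55088197, plus strand: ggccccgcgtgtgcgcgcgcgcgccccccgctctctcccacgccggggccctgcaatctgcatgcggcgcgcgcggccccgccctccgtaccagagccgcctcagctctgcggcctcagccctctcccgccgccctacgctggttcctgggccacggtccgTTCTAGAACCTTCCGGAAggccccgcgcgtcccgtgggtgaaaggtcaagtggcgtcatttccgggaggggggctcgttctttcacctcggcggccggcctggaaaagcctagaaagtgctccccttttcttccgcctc
Dnajb6, chr5:29735648-29735947, plus strand: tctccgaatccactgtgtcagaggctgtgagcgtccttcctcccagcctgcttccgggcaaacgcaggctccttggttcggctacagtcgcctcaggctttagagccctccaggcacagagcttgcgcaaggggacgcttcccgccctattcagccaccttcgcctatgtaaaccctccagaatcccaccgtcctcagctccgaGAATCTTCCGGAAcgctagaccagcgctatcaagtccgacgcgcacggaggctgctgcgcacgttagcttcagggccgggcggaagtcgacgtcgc
Hspb1, chr5:135887669-135887968, plus strand: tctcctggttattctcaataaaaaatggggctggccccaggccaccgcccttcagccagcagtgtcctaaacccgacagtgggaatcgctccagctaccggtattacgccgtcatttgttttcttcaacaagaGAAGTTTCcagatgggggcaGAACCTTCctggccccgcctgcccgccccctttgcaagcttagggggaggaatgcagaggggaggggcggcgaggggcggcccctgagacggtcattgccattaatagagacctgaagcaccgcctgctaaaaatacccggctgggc
Hspa1b, chr17:34959189-34959488, minus strand: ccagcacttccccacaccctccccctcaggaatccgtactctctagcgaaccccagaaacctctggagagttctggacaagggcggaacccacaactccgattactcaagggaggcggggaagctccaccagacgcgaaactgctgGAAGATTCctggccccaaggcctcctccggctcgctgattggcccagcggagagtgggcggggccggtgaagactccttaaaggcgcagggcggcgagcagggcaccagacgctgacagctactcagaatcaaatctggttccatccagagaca
Hspb8, chr5:116422815-116423114, minus strand: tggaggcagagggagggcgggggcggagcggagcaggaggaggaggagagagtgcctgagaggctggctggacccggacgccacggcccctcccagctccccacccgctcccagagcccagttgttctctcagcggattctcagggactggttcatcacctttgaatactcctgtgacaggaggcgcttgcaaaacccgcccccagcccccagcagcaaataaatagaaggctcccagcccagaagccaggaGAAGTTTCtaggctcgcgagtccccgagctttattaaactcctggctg
Bag3, chr7:128523333-128523632, plus strand: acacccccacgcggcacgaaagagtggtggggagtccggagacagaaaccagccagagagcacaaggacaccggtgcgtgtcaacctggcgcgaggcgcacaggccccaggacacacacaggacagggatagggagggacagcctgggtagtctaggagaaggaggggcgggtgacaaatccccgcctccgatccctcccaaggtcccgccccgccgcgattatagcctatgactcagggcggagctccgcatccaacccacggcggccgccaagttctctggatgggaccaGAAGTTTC

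In Hspe1 the match spanned 18 bases, from 89 to 72 bases before the start, and in Dnajb6 it spanned 13 bases from 46 to 34 before it. In Hsph1 the match with 3 units lay after the start, and another with 2 units before it. Hsph1 and Dnajb6 each have 2 windows. The window with the most matches is shown, and positions count from its start. In Hspb8 and Bag3 the matched letters were the same, GAAGTTTC, and lay after the start in both. Hspb1 held these letters too, from 117 to 110 bases before its start. The log2 fold changes of the 4 genes with 3 units ran from -0.18 to 0.17, with a median of -0.03. The 15 genes with at least 2 units had a median of 0.06 and a range from -0.59 to 0.83, and the 42 with neither match had a median of 0.05 and a range from -0.49 to 1.00. Dnaja3, with the highest estimate, had no match in its window. For Hsp90aa1 and Hspa9 no window was matched.

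Among the inducible HSP70 genes, Hspa1a and Hspa1b encode nearly identical proteins, and probe sets for such copies can share signal, so their separate values are uncertain. Their promoter windows had the same base at 296 of 300 positions. Hspa1b read 4.71 and 4.79 on the vehicle arrays and 5.26 and 5.55 on the deltamethrin arrays. Both deltamethrin arrays lay above both vehicle arrays, but all 4 values were below the median probe set (5.60), where the file gives no detection call. The estimate was 0.66 ± 0.18 (limma adjusted p = 0.213). Hspa1a read 6.27 and 6.39 with vehicle and 6.67 and 6.36 with deltamethrin, so its groups overlapped, and its estimate was 0.19 ± 0.19 (limma adjusted p = 0.721). The constitutive HSP70 gene Hspa8 was not analysed here.

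The other cytosolic HSP70 relatives had estimates on both sides of 0. Hspa14, which works on ribosomes with the J-domain protein of Dnajc2, was at -0.12 ± 0.16, and Dnajc2 itself at -0.15 ± 0.20. Hspa12a, a distant relative, was at -0.27 and its paralogue Hspa12b at 0.17. The testis-enriched Hspa2 and Hspa1l were at -0.02 and -0.29. Of the HSP70 genes, 3 had means below the median probe set in both groups (Hspa1b, Hspa1l and Hspa12b). Over the 8 HSP70 genes, Hspa9 included, 0 passed, and 4 estimates lay on either side of 0. Their median of 0.08 became -0.11 without vehicle replicate 1 and 0.32 without vehicle replicate 2.

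The HSP110 genes, whose proteins exchange nucleotide on HSP70, gave no called change. Hsph1, which heat strongly induces, read 15.04 and 15.12 with vehicle and 14.78 and 15.03 with deltamethrin. Both deltamethrin values lay just below both vehicle values. The estimate of -0.18 ± 0.18 had a 95% interval from -0.60 to 0.25, so on the spread between these arrays a rise beyond 1.19-fold lay outside it. Hspa4l was at -0.20 ± 0.18 and Hspa4 at 0.02 ± 0.16, or -0.04 without deltamethrin replicate 2.

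HSP90 was represented by Hsp90aa1, the inducible cytosolic form. It read 17.44 and 17.42 with vehicle and 17.37 and 17.44 with deltamethrin, so the groups overlapped. Its estimate was -0.03 ± 0.16 (95% interval -0.42 to 0.37), and it was 0.04 under cyclic loess scaling, so no direction could be given. Hsp90ab1 was not analysed here.

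Small heat shock proteins had mostly higher estimates. Hspb8, which forms a complex with BAG3 that feeds misfolded proteins to autophagy, read 13.28 and 13.31 on the vehicle arrays. On the deltamethrin arrays it read 14.26 and 13.99. The groups lay clearly apart, at 13.30 ± 0.02 and 14.13 ± 0.19 (SD, n = 2), which is 1.78-fold with a 95% interval from 1.32-fold to 2.39-fold. Hspb1, the gene of HSP25 (HSP27 in humans), read 3.21 and 3.58 with vehicle and 3.93 and 3.89 with deltamethrin. Its groups did not overlap, with an estimate of 0.52 ± 0.19 (limma adjusted p = 0.322), but every value was dim. Estimates were above 0 for 7 of the 8 genes (median 0.27), under quantile, cyclic loess and median scaling too, and for 5 to 8 of them when 1 array was left out. Over all probe sets, 10390 of 22206 were above 0, and the scalings refit the same arrays. Of the 8, 4 were dim in both groups (Hspb1, Hspb3, Hspb7 and Hspb9). Among the rest, Hspb6 was at -0.09, Hspb2 at 0.11 and Hspb11, whose protein works in cilia, at 0.16.

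BAG proteins, several of which carry a domain that releases nucleotide from HSP70, had mostly lower estimates. Bag3 read 13.25 and 13.23 with vehicle and 12.71 and 12.60 with deltamethrin. Its replicates lay close together and the groups apart, with means of 13.24 ± 0.01 and 12.66 ± 0.08 (SD, n = 2) and a 95% interval of the log2 fold change from -0.98 to -0.19. In bulk RNA, fewer cells of a kind and less RNA per cell cannot be told apart. Bag5 (-0.31 ± 0.16), Bag6 (-0.31 ± 0.16) and Bag4 (-0.34 ± 0.19) also had both deltamethrin arrays below both vehicle arrays. That held for 4 of the 6 BAG genes and for 5221 of all 22206 probe sets. Bag4, Bag5 and Bag6 were named through a rule that asked for groups apart, so their separation adds no evidence. Bag6 is known for delivering tail-anchored membrane proteins and Bag4 for binding death receptors. Bag1 (0.02 ± 0.21) and Bag2 (-0.03 ± 0.18) had overlapping groups. In all, 5 of 6 estimates were below 0 with a median of -0.31, where 11816 of all 22206 probe sets were below 0. Under the 3 scalings 5 of 6 remained so. Leaving out 1 array gave 4 to 6 of 6. BAG3 and its partner HSPB8 thus had estimates of opposite sign (-0.59 and 0.83), each holding its sign under every scaling and without any 1 array.

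**Figure D2:**
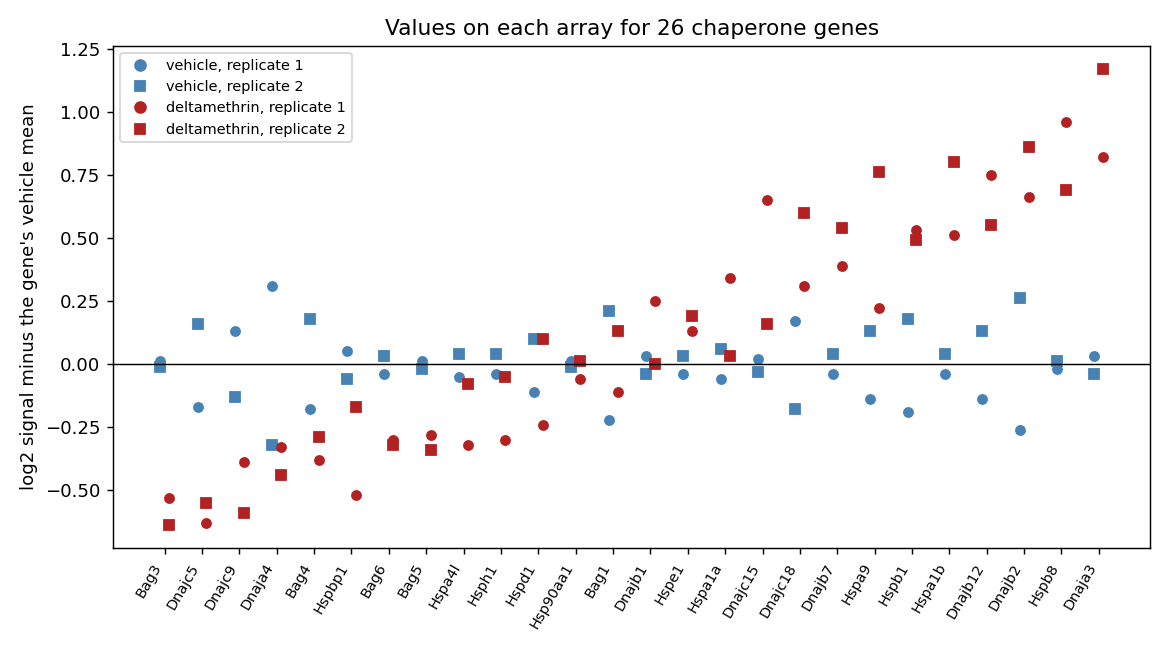
Log2 signal on each of the 4 arrays minus the gene's vehicle mean (y axis) for the 26 named chaperone genes (x axis), ordered by estimate. Blue points are vehicle and red points deltamethrin, with circles for replicate 1 and squares for replicate 2. For Dnaja3 and Hspb8 both red points lie well above the blue pair, for Bag3 both lie below, and for Hsp90aa1 and Hspd1 the groups overlap.

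In mitochondria, imported proteins are pulled in by HSPA9 (mortalin) with J-domain partners, and then fold in the HSP60 and HSP10 chamber. Dnaja3 encodes Tid1, a partner of HSPA9. It read 11.52 and 11.45 on the vehicle arrays and 12.31 and 12.66 on the deltamethrin arrays. The groups were well separated, at 11.49 ± 0.05 and 12.49 ± 0.25 (SD, n = 2), which is 2.00-fold with a 95% interval from 1.46-fold to 2.74-fold.

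Hspa9 read 13.89 and 14.16 with vehicle and 14.25 and 14.79 with deltamethrin. The groups did not overlap, yet the deltamethrin arrays differed from each other more than the closest pair across groups did. Its estimate of 0.50 ± 0.23 (limma adjusted p = 0.414) ran from 0.23 to 0.77 when 1 array was left out.

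The chaperonin genes had estimates near 0. Hspd1 (HSP60) read 16.61 and 16.82 with vehicle and 16.48 and 16.82 with deltamethrin, with overlapping groups and an estimate of -0.07 ± 0.20 (95% interval -0.54 to 0.41). Its sign turned when 1 array was left out (-0.24 to 0.11). Hspe1 (HSP10) read 13.35 and 13.42 with vehicle and 13.52 and 13.58 with deltamethrin. Both deltamethrin values were higher, by a small step of 0.17 ± 0.16 (95% interval -0.23 to 0.56, limma adjusted p = 0.716).

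The remaining mitochondrial members were J-domain proteins. Dnajc15, which acts at the import channel of the inner membrane, had an estimate of 0.41 ± 0.21, with 10.04 and 9.99 on the vehicle arrays and 10.67 and 10.18 on the deltamethrin arrays. Its paralogue Dnajc19 was at -0.04 ± 0.16. Dnajc11, linked to cristae, was at -0.11, while Dnajc4, Dnajc28 and Dnajc30 were at 0.25, 0.01 and 0.21. Of the 10 mitochondrial members 0 passed, 7 had estimates above 0 and the median was 0.19 (0.11 without deltamethrin replicate 2 and 0.12 without vehicle replicate 2). Of 42 members in none of the 3 subsets (mitochondrial, endoplasmic reticulum membrane, stress-inducible cytosolic core), 21 had estimates above 0.

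Among class B J-domain proteins, 8 of 10 estimates were above 0 (median 0.17), also under each of the 3 scalings, and 6 to 8 were when 1 array was left out. The median was 0.03 without deltamethrin replicate 1, 0.09 without vehicle replicate 2 and 0.32 without deltamethrin replicate 2. Dnajb2, a neuronal J-domain protein that binds ubiquitin, read 8.87 and 9.39 with vehicle and 9.79 and 9.99 with deltamethrin. The vehicle arrays differed by more than the deltamethrin arrays, but the groups did not overlap. The estimate was 0.76 ± 0.22 (limma adjusted p = 0.233). Dnajb12, anchored in the endoplasmic reticulum membrane where it helps degrade misfolded membrane proteins, read 10.67 and 10.94 with vehicle and 11.56 and 11.36 with deltamethrin. Its groups were also apart, with an estimate of 0.66 ± 0.19 (limma adjusted p = 0.222), and with a trend its limma adjusted p was 0.0535. Its paralogue Dnajb14 was at 0.12 ± 0.18. Of the 7 members placed in that membrane 0 passed, 6 had estimates above 0 under each scaling, and the median was 0.26 (0.15 without vehicle replicate 1).

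Dnajb1, the main cytosolic partner of inducible HSP70, read 12.12 and 12.05 with vehicle and 12.34 and 12.09 with deltamethrin. The groups overlapped, and the estimate was 0.13 ± 0.18 with a 95% interval from -0.30 to 0.56. Dnajb6, which suppresses aggregation of polyglutamine proteins, was at 0.02 ± 0.16, and Dnajb4 at -0.06 ± 0.17. Dnajb7 was at 0.47 ± 0.17, with 5.12 and 5.20 on the vehicle arrays and 5.55 and 5.70 on the deltamethrin arrays. Its vehicle mean (5.16) lay below the median probe set (5.60) and its deltamethrin mean (5.63) only just above it. Dnajb3, Dnajb8 and Dnajb13 were dim in both groups. In class A, the cytosolic Dnaja2 was at -0.12 ± 0.21 and Dnaja4 at -0.38 ± 0.24, and Dnaja1 was not analysed here.

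Class C, the most varied, held 26 genes, of which 15 had estimates above 0 (median 0.06; 14 under quantile scaling). Without deltamethrin replicate 2 the balance turned, to 12 above 0 and 14 below with a median of -0.03, and without vehicle replicate 1 it was 13 and 13. Dnajc5 encodes CSPα, a chaperone of synaptic vesicles that keeps SNARE proteins competent. It read 10.34 and 10.67 with vehicle and 9.88 and 9.96 with deltamethrin. Both deltamethrin arrays were lower, with an estimate of -0.59 ± 0.19 (limma adjusted p = 0.265). Dnajc9, a histone chaperone, read 12.70 and 12.44 with vehicle and 12.18 and 11.98 with deltamethrin, also apart, at -0.49 ± 0.19 (limma adjusted p = 0.330). Dnajc18, of the endoplasmic reticulum membrane, was at 0.46 ± 0.21. Estimates of the other class C genes ran from -0.51 in the dim Dnajc5b and -0.41 in Dnajc21, which serves ribosome assembly, to 0.41 in Dnajc12, a partner of aromatic amino acid hydroxylases. Auxilin (Dnajc6), which uncoats clathrin vesicles, was at 0.08, and Dnajc13, an endosomal protein, at -0.10. Splicing-associated Dnajc8 and Dnajc17 were at 0.08 and 0.37.

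The last members belong to none of the classes above. Hspbp1, a nucleotide exchange factor, read 12.26 and 12.15 with vehicle and 11.69 and 12.04 with deltamethrin. Both deltamethrin arrays were lower, at -0.34 ± 0.19 (limma adjusted p = 0.497). Hspbap1 was at 0.04 ± 0.17.

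The genes best known as a heat shock signature can be read together. Of 13 genes listed as the stress-inducible cytosolic core 10 were measured, 0 passed, 5 had estimates above 0 and 5 below (6 above under cyclic loess scaling), and the median was 0.05 (0.01 without deltamethrin replicate 1, 0.10 without deltamethrin replicate 2). With a trend, Hspb8 was called higher and Bag3 lower among them. A missed threshold does not show that a level stayed the same, so the intervals are given: for 62 of the 69 members the 95% interval of the log2 fold change ended below a 2-fold rise, as it did for 20444 of all 22206 probe sets. The 7 others were Dnaja3, Hspb8, Dnajb2, Dnajb12, Hspa1b, Hspa9 and the noisy Dnajc30. These intervals are per gene and rest on the spread between 2 arrays.

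**Figure D3:**
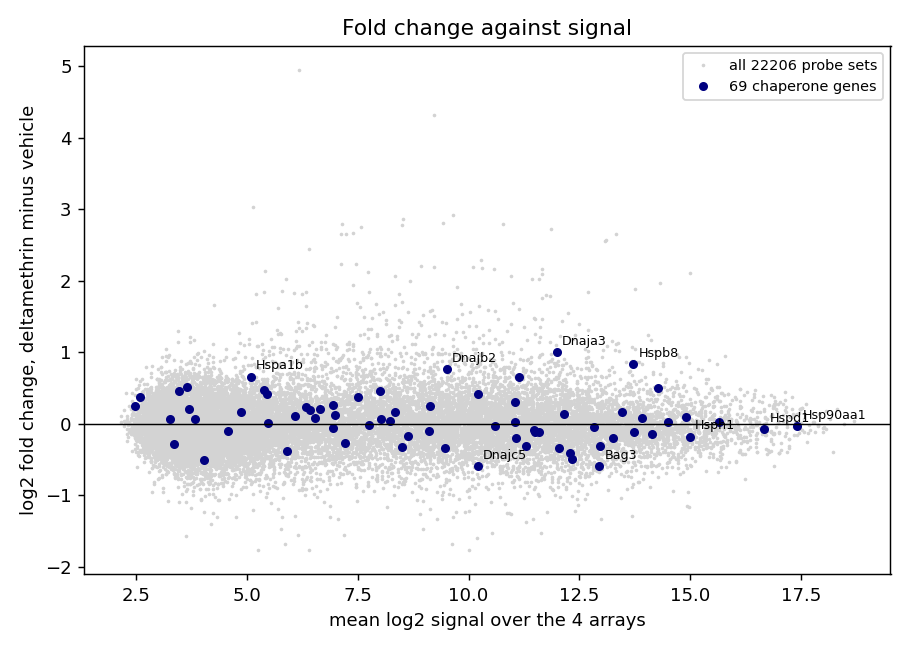
Log2 fold change (y axis) against the mean log2 signal over the 4 arrays (x axis) for all 22206 probe sets (grey) and the 69 chaperone genes (dark blue). The members span the range of signal, stay between -0.59 and 1.00, and those of the highest signal, such as Hsp90aa1 and Hspd1, lie near 0.

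Partner genes outside the rule were described from lists of the same pathway, in which Cdc37, Hscb, Timm44, Sqstm1 and Mrpl18 were the genes at an unadjusted limma p below 0.05. Of 7 heat shock factor and factor-binding genes 0 passed, with a median of -0.03 that ran from -0.14 (without vehicle replicate 2) to 0.10 (without deltamethrin replicate 2). Hsf2 was at -0.03 ± 0.16, the dim Hsf3 at 0.43 ± 0.29 and the dim Hsf5 at -0.25 ± 0.19, while Hsf1 was not analysed here. Of 20 cochaperones of HSP90 and HSP70 0 passed, with 8 estimates above 0 and 12 below (10 and 10 under cyclic loess scaling). That balance turned with 1 array left out, to 14 above and 5 below without vehicle replicate 2 and to 15 above and 5 below without deltamethrin replicate 1. Cdc37, which delivers kinases to HSP90, read 10.13 and 10.21 with vehicle and 9.61 and 9.86 with deltamethrin, at -0.44 ± 0.18 (limma adjusted p = 0.358), and the HSP70-binding St13 was at 0.32 ± 0.17. Of 14 genes of the cytosolic chaperonin TRiC and prefoldin 0 passed and 12 had estimates above 0 (11 under quantile scaling, 8 without vehicle replicate 1). Pfdn5 and Pfdn1 were at 0.31 ± 0.18 and 0.27 ± 0.18.

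Mitochondrial partners had a median of 0.25, with 0 of 9 called and 7 of 9 estimates above 0. Hscb, a mitochondrial J-domain protein of iron-sulfur cluster assembly that its symbol keeps outside the rule, read 7.16 and 7.33 with vehicle and 8.10 and 8.30 with deltamethrin. The groups were well apart, with an estimate of 0.96 ± 0.18 (limma adjusted p = 0.113). It was called with a trend (limma adjusted p = 0.0380) and after the lowest 40% by mean were left out (0.0425). Timm44, which tethers HSPA9 to the import channel, was at 0.41 ± 0.17.

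Of 9 other genes that heat shock factors can induce, 1 was called higher and 0 lower, against 79 and 17 of all 22206 probe sets. The called gene was Sqstm1, the autophagy receptor p62, at 2.11 ± 0.18 (limma adjusted p = 0.0189). It read 13.84 and 14.07 with vehicle and 15.95 and 16.18 with deltamethrin. The estimate stayed at 2.11 with the replicate number as a block and between 2.00 and 2.23 with 1 array left out, but in those fits, where 0 of all probe sets passed, it was not called (limma adjusted p = 0.160 with the block). Sqstm1 is also a target of other stress factors. Mrpl18, a mitochondrial ribosomal protein gene, read 11.69 and 11.76 with vehicle and 11.04 and 10.78 with deltamethrin, and its estimate of -0.82 ± 0.18 (limma adjusted p = 0.147) was called lower with a trend (0.0186). Endoplasmic reticulum chaperones, side by side with the members, had a median of -0.14 with 0 of 9 called. The lowest p-values there were those of Sdf2l1 (-0.40 ± 0.17) and Dnajb9 (0.47 ± 0.21).

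**Figure D4:**
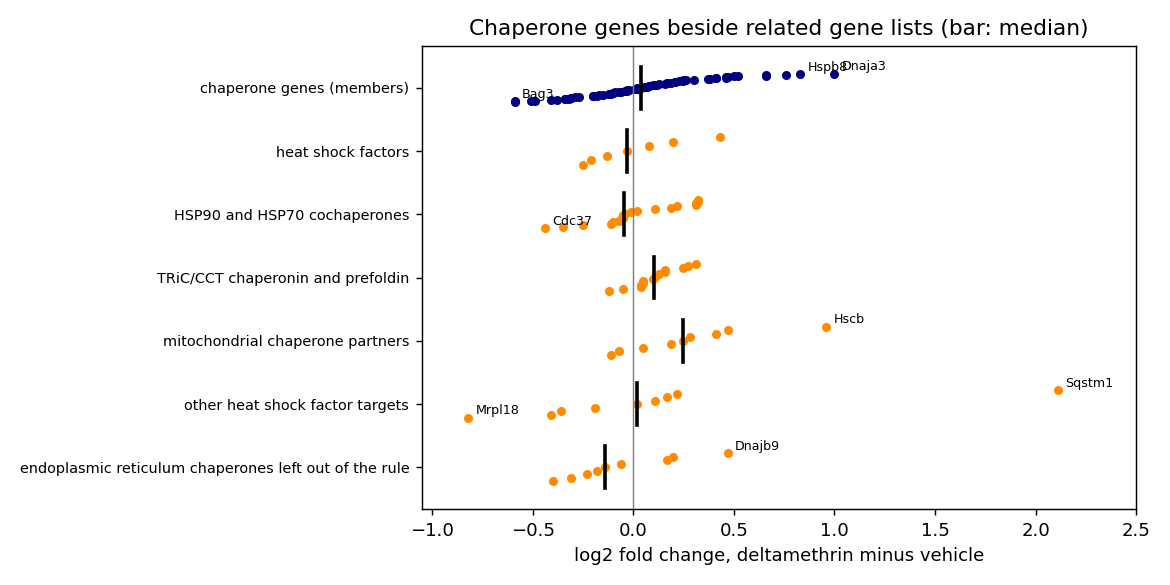
Log2 fold change (x axis) of each gene in the 69 members (dark blue) and in 6 related lists (orange), with a black bar at each median. The medians lie between -0.14 and 0.25, Sqstm1 (2.11) is the one called gene, and Hscb (0.96) is the highest mitochondrial partner.

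Array medians lay between 5.61 and 5.63. Over the members, differences between the 2 vehicle arrays had an SD of 0.29, those between the 2 deltamethrin arrays 0.32, and those across groups 0.37 to 0.42. All 8 measured neuroblastoma markers (such as Hand2, Isl1 and Stmn2) lay above the median probe set in at least 1 group by their mean. Of 17 measured markers of astrocytes, oligodendrocytes and Schwann cells, microglia and macrophages, or fibroblasts, 2 did (Cnp and Ptprc), and 0 passed (0 at an unadjusted p below 0.05 in limma). Of the 8 neuroblastoma markers, 0 passed, 7 had estimates below 0 and the median was -0.38. At an unadjusted limma p below 0.05, 4 were lower, namely Isl1 (-1.14 ± 0.17), Dbh (-1.26 ± 0.47), Phox2a (-0.77 ± 0.26) and Chga (-0.50 ± 0.17), and Th was higher (0.90 ± 0.27). Over all probe sets, 6.84% were lower and 6.83% higher at that threshold. Isl1, a marker of the sympathoadrenal lineage (limma adjusted p = 0.0740), was called lower with a trend (0.00173) and after the lowest 40% by mean were left out (0.0265). The part of these markers in any result here was not tested.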

How the data were processed

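Total RNA (500 ng per array) from Neuro-2a cells was labelled and hybridised to Clariom S Mouse arrays. The authors deposited 1 log2 value per probe set and array, and per the submitters' processing notes the tools were RMA and Transcriptome Analysis Console. Tool versions, RMA variant and genome build: not given in the sources used here. Values from 1.92 to 18.75 showed the log2 scale. RMA aligns the arrays, so a shift shared by most genes cannot be seen. Depth has no meaning here, and the number of arrays limits the precision (median SE of a member 0.19).

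Genes were named from the platform annotation (19572 probe sets with 1 symbol, 0 with several, 2634 unnamed here), and all 69 member symbols matched RefSeq by Entrez ID. Deltamethrin minus vehicle was fitted over all 22206 probe sets with limma 3.58.1 in R 4.3.3 (lmFit, eBayes, no trend, no block, two-sided, Benjamini-Hochberg), leaving 2 residual and 4.43 prior degrees of freedom. The fit was tested on simulated data. The members and lists were chosen with earlier results of these data known, so lists are described by counts and medians. Named genes were called members, the 8 highest and 8 lowest estimates among members above the median with groups apart, a fixed core, and the smallest p of each class. Above the median means that the higher of the group means was, so either group sufficed. For lists they were called genes, otherwise the 2 of smallest p. Other genes were named after their values were seen. Dim means a mean below the median probe set. Alternatives were other variance models, scalings, filters, thresholds, a replicate block and leaving out each array.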

Additional observations from a re-analysis of the deposited data

How the results depend on the processing

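The count of chaperone genes called was 3 (2 higher, 1 lower) with a mean-variance trend, also with robust moderation added, 1 (1 higher) without the lowest 40% of probe sets by mean, and 0 in the other fits, including every scaling, 1 probe set per gene, an adjusted p below 0.01 or 0.1, and each array left out. Over all probe sets 806 were called with a trend, 777 with a trend and robust moderation, 312 without the lowest 40%, 233 at an adjusted p below 0.1, 5 at 0.01 and 0 without moderation (2293 at an unadjusted p below 0.05). Leaving out 1 array gave 0 calls over all probe sets each time, from 0 to 0, with 1631 to 2779 at an unadjusted p below 0.05 and 4 to 10 members there. Partner genes here are those in the lists of 7, 20, 14, 9 and 9 measured genes, leaving out the endoplasmic reticulum chaperones. Among them 3 were called with a trend and with a trend and robust moderation. Calls were 2 without the lowest 40%, 0 without moderation and 0 at an adjusted p below 0.01. With the replicate number as a block 0 probe sets, 0 partner genes and 0 members were called (3221 probe sets and 13 members at an unadjusted p below 0.05). Same-numbered arrays' deviations correlated at 0.127, and nothing says that the numbers pair the samples. The fits with fewer arrays or a block have fewer residual degrees of freedom.

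The median over members lay between 0.04 and 0.06 under the scalings and ran from -0.02 to 0.04 with 1 array left out. Hsp90aa1 turned to 0.04 under cyclic loess scaling. With 1 array left out, the sign turned at least once for 25 of the 69 members, with estimates between -0.17 and 0.26, and held for 44. Those turned included Bag1 (-0.20 to 0.23), Hsp90aa1 (-0.06 to 0.01) and Hspd1 (-0.24 to 0.11). Among heat shock factor and factor-binding genes it turned for Hsf3 (-0.01 to 0.86) and Hsf2 (-0.09 to 0.03), and also for Hsbp1, Hsf2bp and Hsbp1l1. Asking for 3 units in place of 2 left 4 of 15 promoters matched. The cause of these differences was not tested beyond the fits' own construction.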
